A study of Mus musculus with 10 samples.

Results

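Nuclear receptors are transcription factors that are switched by small fat-soluble ligands, and coactivators are the proteins they recruit to open chromatin and start transcription. The group described here held 33 genes of the 17493 in the deposited expression table: 22 receptor genes and 11 genes of coactivators and close relatives. They were chosen by gene symbol, as nuclear receptors outside the ROR, NR4A and REV-ERB families together with receptor coactivators. All 33 symbols had a row in the table.

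Many nuclear receptors, among them the receptors for retinoic acid, vitamin D, thyroid hormone and fatty acids, bind DNA as heterodimers with a retinoid X receptor (RXR). Without ligand such dimers hold corepressors that carry histone deacetylases, and ligand exchanges these for coactivators of the p160 family, which bring in histone acetyltransferases. In helper T cells, retinoic acid is known to favour regulatory T cells over Th17 cells, and liver X receptors and the orphan receptor NR2F6 are known as brakes on Th17 cytokines.

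RNA sequencing compared Th17 cells, the helper T cells that make IL-17, after culture with the compound TMP269 or with DMSO, the usual solvent of such compounds. All groups came from CD4+ T cells of C57BL/6 mouse spleen, activated through CD3 and CD28 with IL6 at 20 ng/mL and TGFb at 2.5 ng/mL and cultured for 48 to 72 h. TMP269 selectively inhibits the class IIa histone deacetylases, while neither its dose nor its exposure time is given in the sources used here. There were 2 libraries in each of the 2 groups, and 6 chromatin immunoprecipitation and input libraries for HDAC4 and HDAC7 are not analysed here. The submitters labelled the DMSO libraries WT in the deposited values. The comparison asks which genes respond when class IIa deacetylases are inhibited. The labels do not say whether replicates were separate animals or cultures, so p-values reflect the spread of these samples alone, and that spread may be technical.

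Values are normalised reads, which are a library's reads per gene divided by 1 size factor for that library, and a normalised read is therefore close to 1 read. The libraries held 20007042 to 25321455 reads. Ribosomal RNA of Rn45s made up 2.20% of reads in DMSO replicate 2 and 0.716% to 1.12% in the others, so this library stood apart. The T cell markers Cd3e, Cd4 and Lck were present in all libraries, as were the Th17 markers Il17a and Il17f. Markers of B cells were present too, and 7 of 9 fell with TMP269 while 0 rose: their summed level was 4991 to 5113 normalised reads with DMSO and 2757 to 2795 with TMP269. None of the 9 was at 0. Of 8 myeloid markers, 5 could be tested, 1 rose and 1 fell, and their sums were 498 to 515 and 548 to 567. Of 6 dendritic cell markers, 4 could be tested and 1 (Flt3) fell, with sums of 330.2 to 419 and 203 to 225. The lower sums came from Flt3, at 214 and 303 with DMSO and 69.3 and 57.9 with TMP269. Itgax went the other way, at 28.8 and 20.5 with DMSO and 41.3 and 46.5 with TMP269. So did Xcr1, at 12.6 and 10.9 with DMSO and 19.6 and 29.4 with TMP269. Neither of these passed 0.05 in limma after adjustment, and Zbtb46 was nearly level. The sums therefore do not describe the dendritic list as a whole. B cells also express nuclear receptors, and the part of these cells in the results below was not tested. In such bulk samples, fewer cells of a type and less RNA per cell cannot be told apart.

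With TMP269, 5 of the 33 genes rose and 1 fell. The retinoid receptor genes Rarg and Rxra, the thyroid hormone receptor gene Thrb and the coactivator genes Ncoa2 and Ncoa7 were the 5 that rose, and the other thyroid hormone receptor gene, Thra, was the one that fell. Calls here mean an adjusted p under 0.05 (Benjamini-Hochberg) from limma, fitted to log2(value + 1) over all genes with at least 10 normalised reads in at least 2 libraries. This low-value filter passed 27 of the 33 genes. The 6 calls are 22.2% of these 27, beside 27.5% of all 12535 tested genes, so calls were about as common among them as elsewhere. Rises were 5 of 27, where 12.8% of all tested genes rose, and the fall was 1 of 27, where 14.7% fell. The median log2 fold change of the 27 was 0.10, with 20 positive and 7 negative, beside -0.0037 over all tested genes. In 17 of the 27 (63.0%) the TMP269 libraries did not overlap the DMSO libraries, beside 66.6% of all tested genes. Scaling to equal library totals moved the median over all genes to 0.10 and that of the 27 to 0.20. It gave 9 rises and 1 fall among them, while the higher share of calls over all genes went from 46.5% to 67.3%. Without DMSO replicate 2, 4 rose and 1 fell.

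**Figure D1:**
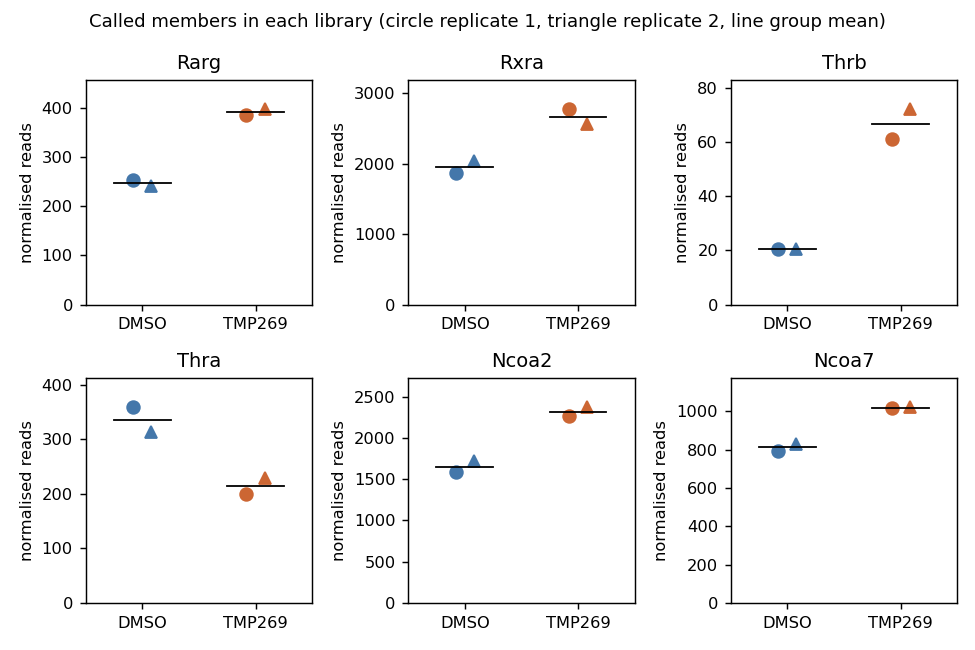
Normalised reads (vertical axis, from 0) of the 6 called genes in each library, by group; circles are replicate 1, triangles replicate 2 and lines the group means. The groups do not overlap in any panel, and Thrb goes from 20.6 to 66.6 normalised reads while Thra goes from 336 to 214.

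Of the 6 retinoid receptor genes, Rarg and Rxra rose, Rara and Rxrb were not called, and Rarb and Rxrg had almost no reads. Rarg encodes the gamma form of the retinoic acid receptor (RAR). It was at 253 and 240.0 normalised reads in the DMSO libraries and 386 and 397 in the TMP269 libraries. Both TMP269 libraries lay above both controls, a 1.59-fold rise (log2 fold change 0.67 ± 0.12 (SE), limma adjusted p = 0.00505). Rxra encodes RXR alpha, a shared partner of many receptors listed here. It stood at 1869.7 and 2036 with DMSO and 2773 and 2559.6 with TMP269. That was 1.37-fold higher, again with no overlap (log2 fold change 0.45 ± 0.08 (SE), limma adjusted p = 0.00595). Rara, the gene of RAR alpha, was at 2841 and 2701 with DMSO and 2802 and 2977 with TMP269. One TMP269 library lay within the control range, and the 95% confidence interval of its log2 fold change was -0.12 to 0.24 (limma adjusted p = 0.596). Rxrb, which encodes RXR beta, had 1698 and 1798 with DMSO and 1869 and 1803 with TMP269, an interval of -0.11 to 0.25 and a limma adjusted p of 0.536.

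Gene pairs within a library can be compared free of library scaling, and the pairs below were chosen after their values were seen. Reads of Rarg were 8.90% and 8.89% with DMSO and 13.8% and 13.3% with TMP269 of those of Rara in replicates 1 and 2 of each group. The ratio also depends on transcript lengths, so it is read between libraries only, where it was 1.52-fold higher with TMP269. Rxra reads were 110.1% and 113% with DMSO and 148% and 142% with TMP269 of Rxrb reads, a 1.30-fold higher ratio. In each of the 5 pairs compared, both TMP269 ratios lay above both DMSO ratios, but the choice of pairs favoured this. Each pair set a gene called higher over a paralogue that was not called or that fell, and Ncoa2 served in 2 pairs. That all 5 go the same way is therefore no separate result. The exact two-sided permutation test gave p = 0.333 for each pair, 0.333 also after adjustment over the 5, which is the smallest value that 2 against 2 libraries can give. No pair could therefore pass 0.05 in this design.

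The thyroid hormone receptor genes moved in opposite directions. Thrb, the gene of receptor beta, was barely present in control cells, at 20.7 and 20.5 normalised reads in the DMSO libraries and 61.0 and 72.2 in the TMP269 libraries. That was a 3.12-fold rise (log2 fold change 1.64 ± 0.27 (SE), limma adjusted p = 0.00347), and the fold is an underestimate for so low a gene because 1 was added to each value. The counts behind it were 23 and 17 reads with DMSO and 59 and 76 with TMP269. Thra, the gene of receptor alpha, was at 358 and 314 with DMSO and 199 and 228 with TMP269. It fell to 0.637-fold, with both TMP269 libraries below both controls (log2 fold change -0.65 ± 0.14 (SE), limma adjusted p = 0.0105). Reads of Thrb were 5.78% and 6.54% with DMSO and 30.6% and 31.7% with TMP269 of those of Thra, a 5.06-fold higher ratio (exact permutation p = 0.333, as above). The end of Thra overlaps Nr1d1, which is read from the opposite strand, and the strand setting of the counting is not given in the sources used here, so reads of this overlap are uncertain. Nr1d1 itself was at 192 and 162 with DMSO and 156 and 187 with TMP269 and was not called (limma adjusted p = 0.872). The fall of Thra stood beside the fall of the B cell markers given above, and their part in it was not tested.

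Vdr, the vitamin D receptor gene, differed more between replicates than between groups. It was at 105 and 60.3 with DMSO and 73.4 and 43.7 with TMP269. The groups overlapped, and the interval of the log2 fold change was -1.24 to 0.26 (limma adjusted p = 0.303).

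Sequences upstream of the start are shown for the 3 receptor genes that rose, because the AGGTCA half-site to which RAR, RXR and thyroid hormone receptors bind lies in a window of each. They come from RefSeq promoter windows of assembly GRCm38.p6, of which the 250 bases before the annotated start are printed, 5′ to 3′ on the strand of the gene. Capitals mark AGGTCA or, where it lies on the other strand, TGACCT.
Rarg, minus strand, chr15:102257523-102257772: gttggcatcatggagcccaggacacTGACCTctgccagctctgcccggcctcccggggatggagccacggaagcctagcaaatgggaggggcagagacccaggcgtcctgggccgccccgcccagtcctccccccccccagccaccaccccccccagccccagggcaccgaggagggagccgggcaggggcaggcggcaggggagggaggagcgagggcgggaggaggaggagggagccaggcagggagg
Rxra, plus strand, chr2:27709042-27709291: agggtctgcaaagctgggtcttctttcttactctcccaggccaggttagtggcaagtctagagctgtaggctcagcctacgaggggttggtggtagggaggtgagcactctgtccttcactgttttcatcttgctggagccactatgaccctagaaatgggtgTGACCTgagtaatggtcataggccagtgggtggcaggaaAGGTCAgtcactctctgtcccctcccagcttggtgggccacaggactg
Thrb, plus strand, chr14:17660710-17660959: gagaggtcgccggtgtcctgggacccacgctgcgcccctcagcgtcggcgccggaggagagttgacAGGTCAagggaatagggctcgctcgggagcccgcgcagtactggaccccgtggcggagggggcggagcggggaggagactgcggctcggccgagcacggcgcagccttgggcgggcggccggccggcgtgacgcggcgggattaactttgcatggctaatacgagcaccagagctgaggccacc
The half-site began 225 bases before the start in Rarg, at 87 and 48 bases in Rxra, with opposite orientations, and at 184 bases in Thrb. Each of the 3 genes had a further annotated start with no half-site in its window, and which start these cells used was not measured. Windows were found for 28 of the 33 genes, 45 windows in all, and 9 (20.0%) held AGGTCA on either strand, beside 14.0% of all 32851 windows of the table. Besides the 3 genes shown, windows of Ncoa4, Nr6a1, Pparg, Pprc1 and Rxrg held it. Of these genes, Ncoa4, Nr6a1 and Pprc1 were tested and not called, while Pparg and Rxrg were too low to test. Both windows of Ncoa7, which rose, lacked the half-site, and no window was found for Ncoa2 or Thra. Any link between the half-site and a rise was not tested. The GC box GGGCGG, searched on both strands, was in 23 of the 45 (51.1%) beside 32.7% of all windows. The motif of MEF2, the factors best known to recruit class IIa deacetylases, was in 0 of 45 beside 2.92% of all, also on both strands. A match describes letters, not binding, and no match says only that the letters are not in this window.

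Of the lipid-sensing receptor genes, 0 were called by limma, 1 (Ppard) had an unadjusted p under 0.05, edgeR called 1 and DESeq2 called 0. The 3 tested ones were each higher in both TMP269 libraries than in both controls. Over all tested genes, 66.6% had no overlap between groups, in either direction. Ppard encodes PPAR delta, a fatty acid receptor. It was at 1628 and 1673 with DMSO and 1916 and 1933 with TMP269 (log2 fold change 0.22 ± 0.08 (SE), limma adjusted p = 0.0608). The difference was outside the spread of replicates but missed the threshold, and it passed in edgeR with TMM (adjusted p = 0.0443) and in limma with equal library totals (0.0180), but not in DESeq2 or with any 1 library left out (highest limma adjusted p = 0.241). Nr1h2, the gene of liver X receptor beta, had 2363 and 2216 with DMSO and 2489 and 2411 with TMP269 (interval of the log2 fold change -0.08 to 0.28, limma adjusted p = 0.375). Nr1h3, the gene of liver X receptor alpha, was low, at 10.8 and 10.9 with DMSO and 15.5 and 18.0 with TMP269 (interval -0.31 to 1.47, limma adjusted p = 0.296). Its span overlaps Acp2, which rose (limma adjusted p = 0.0133), so its few reads are uncertain.

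Among steroid receptors and their relatives, the glucocorticoid receptor gene Nr3c1 lay at the edge of the threshold. It was at 1124 and 1230.3 with DMSO and 1343 and 1622 with TMP269. Both TMP269 libraries were above both controls, by 1.25-fold, with a limma adjusted p of 0.0505 and an interval of 0.08 to 0.57. The edgeR quasi-likelihood test, DESeq2 and the fit without TMP269 replicate 1 called it (adjusted p = 0.0400, 0.0425 and 0.00992), whereas limma without TMP269 replicate 2 gave 0.330. Esrra encodes an estrogen-related receptor that drives genes of mitochondria. It was nearly level, with 606 and 610.3 with DMSO and 595 and 626 with TMP269 and an interval of -0.21 to 0.23 (limma adjusted p = 0.969). Its span overlaps Trmt112, which fell.

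Of the 4 orphan receptor genes, limma, edgeR and DESeq2 each called 0, and 0 had an unadjusted p under 0.05 in limma. Nr2f6 was at 219 and 224 with DMSO and 193 and 224 with TMP269, with overlapping groups and an interval of -0.42 to 0.24 (limma adjusted p = 0.676). Nr2c1 and Nr2c2 encode the testicular orphan receptors. Nr2c1 had group means of 275 ± 24.4 and 253 ± 5.86 normalised reads with DMSO and TMP269 (SD, n = 2, interval -0.42 to 0.19), and Nr2c2 1383 ± 140.3 and 1591 ± 61.7 (interval -0.01 to 0.42). Nr2c2 shares part of its span with Mrps25, which fell. Nr6a1, the germ cell nuclear factor gene, had 126 ± 6.97 and 153 ± 11.2 (interval -0.09 to 0.65). For Nr2c2 and Nr6a1 both TMP269 libraries lay above both controls, for Nr2c1 the groups overlapped, and the limma adjusted p-values were 0.553 for Nr2c1, 0.136 for Nr2c2 and 0.234 for Nr6a1. With equal library totals limma called Nr2c2 higher (adjusted p = 0.0311).

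The 6 genes that did not pass the filter are all receptor genes, and their reads are too few for a comparison. Rarb had 8 reads over the DMSO libraries and 8 over the TMP269 libraries, Ppara 8 and 12, Pparg 14 and 13, and the estrogen receptor gene Esr1 14 and 8. Rxrg and the mineralocorticoid receptor gene Nr3c2 had 0 reads with DMSO and 1 with TMP269. A count of 0 allows up to 3 reads in a library, or 0.118 and 0.150 CPM in DMSO replicates 1 and 2, covering counting error only.

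**Figure D2:**
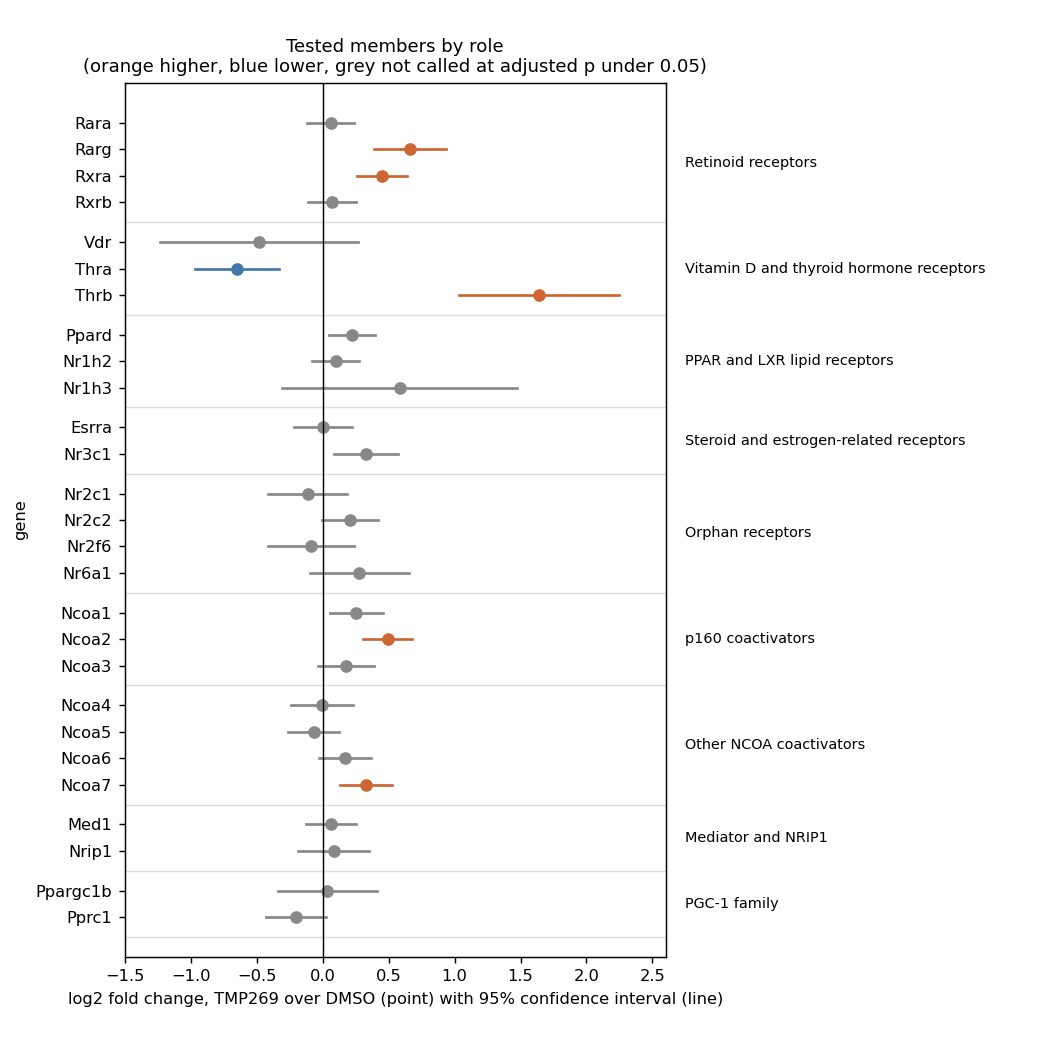
Log2 fold change of TMP269 over DMSO (horizontal axis) for the 27 tested genes by role, with 95% confidence intervals from limma; orange genes were called higher, blue lower and grey not called. Thrb lies farthest to the right and Thra farthest to the left, and most grey intervals cross 0.

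The p160 coactivators, which bind liganded receptors and carry acetyltransferases to them, had higher values with TMP269 in all 3 genes, and 1 was called. Over all tested genes, 66.6% had no overlap between groups, in either direction, and 12.8% were called higher. Ncoa2 was at 1583 and 1716 normalised reads in the DMSO libraries and 2269 and 2369.7 in the TMP269 libraries. That was a 1.41-fold rise without overlap (log2 fold change 0.49 ± 0.08 (SE), limma adjusted p = 0.00368). Ncoa1 was at 1032 and 1136 with DMSO and 1274 and 1309.7 with TMP269, also without overlap (log2 fold change 0.25 ± 0.09 (SE), limma adjusted p = 0.0606). It was called by edgeR (adjusted p = 0.0429) and with equal library totals (limma adjusted p = 0.0169), but not by DESeq2 or with any 1 library left out (highest limma adjusted p = 0.225). Ncoa3 had 7908 and 6947 with DMSO and 8737 and 8033 with TMP269, an interval of -0.03 to 0.39 and a limma adjusted p of 0.187. Relative to its paralogues, Ncoa2 read at 153% and 151% with DMSO and 178% and 181% with TMP269 of Ncoa1. Against Ncoa3 it read at 20.0% and 24.7% with DMSO and 26.0% and 29.5% with TMP269, where the closest libraries of the groups were near each other (exact permutation p = 0.333 for both pairs).

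**Figure D3:**
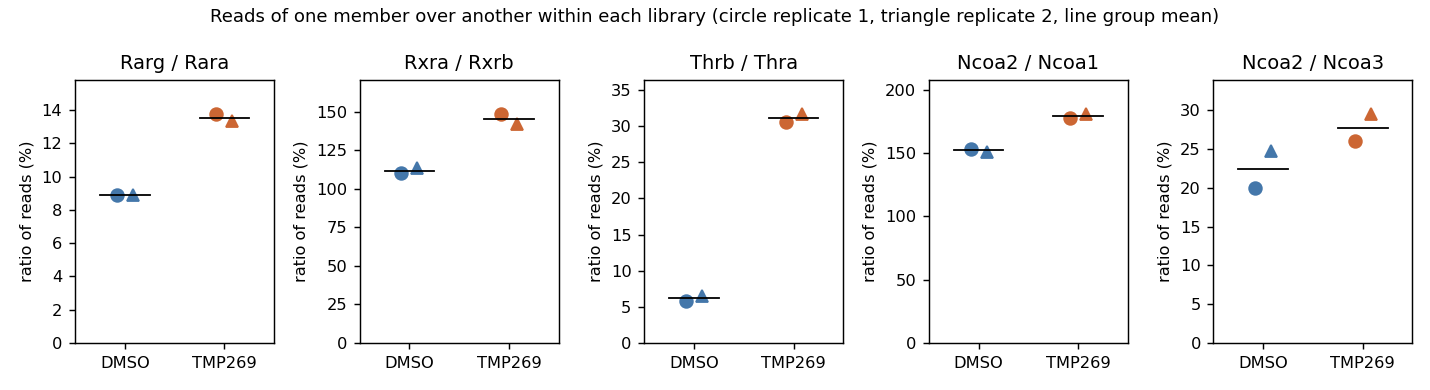
Reads of one gene as a percentage of those of its paralogue in each library (vertical axis, from 0), for the 5 pairs compared; circles are replicate 1, triangles replicate 2 and lines the group means. The TMP269 libraries lie above the DMSO libraries in each panel, with the widest gap for Thrb over Thra. The pairs were chosen after their values were seen, each with a gene called higher set over its paralogue.

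Of the 4 other genes named NCOA, only Ncoa7 was called, and this call was fragile. Ncoa7 encodes an estrogen receptor-associated protein with a domain of the oxidation resistance family. It was at 791 and 831 with DMSO and 1015 and 1020.1 with TMP269. The rise was 1.25-fold (log2 fold change 0.33 ± 0.09 (SE), limma adjusted p = 0.0241), and the call was lost without DMSO replicate 1, DMSO replicate 2, TMP269 replicate 1 or TMP269 replicate 2 (limma adjusted p = 0.0767, 0.0532, 0.0967 and 0.0944). Ncoa6, a scaffold of the KMT2C and KMT2D methyltransferase complexes, had 1845 and 1759 with DMSO and 2142 and 1913 with TMP269 (interval -0.03 to 0.36, limma adjusted p = 0.178). Ncoa4, better known as the receptor that delivers ferritin to autophagosomes, had 1723 and 1847 with DMSO and 1618 and 1955 with TMP269 (interval -0.24 to 0.23, limma adjusted p = 0.978). Ncoa5 was at 1679.9 and 1589.7 with DMSO and 1630.0 and 1492 with TMP269 (interval -0.26 to 0.13, limma adjusted p = 0.585). The Ncoa4 and Ncoa5 groups overlapped, and the sign of both was positive with equal library totals.

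The remaining cofactor genes were not called. Med1, the Mediator subunit that contacts nuclear receptors, had 2354 and 2231 with DMSO and 2512 and 2277 with TMP269 (interval -0.13 to 0.25, limma adjusted p = 0.616). Nrip1, which encodes the receptor-bound corepressor RIP140, was at 447 and 533 with DMSO and 515 and 519.5 with TMP269 (interval -0.18 to 0.35, limma adjusted p = 0.632). Pprc1 and Ppargc1b belong to the PGC-1 family, coactivators of mitochondrial genes. Pprc1 was lower in both TMP269 libraries, at 3764 and 3449.6 with DMSO and 3424 and 2868 with TMP269, but missed the threshold (log2 fold change -0.20 ± 0.10 (SE), limma adjusted p = 0.164). Ppargc1b had 145 and 162 with DMSO and 169.5 and 145 with TMP269 and an interval of -0.34 to 0.41 (limma adjusted p = 0.888).

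Partner and target genes of the receptors were read from 10 lists, of which 105 distinct genes could be tested: 21 rose and 19 fell (38.1% called, beside 27.5% of all tested genes). Of 10 corepressor complex genes, among them Ncor1 and Hdac3, 0 were called by limma, 1 (Ncor1) had an unadjusted p under 0.05, and edgeR and DESeq2 called 0. With equal library totals 1 rose, and without DMSO replicate 1 there was 1 fall. The median log2 fold change of this list was 0.08. Of 24 tested further cofactor genes, 9 rose and 4 fell (median 0.13), where 12.8% of all tested genes rose and 14.7% fell. Calcoco1, a coiled-coil coactivator, rose 2.13-fold, from 207 and 207 to 428 and 456 normalised reads (limma adjusted p = 7.32e-04). Kmt2d, a histone H3 lysine methyltransferase that acts with Ncoa6, rose 1.60-fold (limma adjusted p = 8.19e-04). The arginine methyltransferase gene Prmt1 fell to 0.685-fold and the acetyltransferase gene Kat2a to 0.707-fold (limma adjusted p = 0.00196 and 0.00450). Among 8 tested receptors outside the 33 genes, 3 (37.5%) rose and 0 fell, where 12.8% of all tested genes rose and 14.7% fell. Nr4a1, an immediate early receptor, rose 1.403-fold (limma adjusted p = 0.00286).

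Among targets of the retinoid, liver X, PPAR and glucocorticoid receptors, called genes lay on both sides. The called shares of these lists were 28.6%, 27.3%, 28.6% and 41.7%, in that order, beside 27.5% of all tested genes. The retinoid, liver X and PPAR shares were thus close to that over all genes, of which 12.8% rose and 14.7% fell. Of 7 tested retinoid handling and RAR target genes, 1 rose and 1 fell. Hic1, a repressor induced by retinoic acid, was at 91.8 and 74.8 with DMSO and 344 and 178 with TMP269 normalised reads, a 2.96-fold rise (limma adjusted p = 0.00509). Tgm2, a transglutaminase and classical retinoic acid target, was at 5588 and 3744 with DMSO and 1439.8 and 1529 with TMP269, a fall to 0.325-fold (limma adjusted p = 4.13e-04). The groups overlapped for neither gene. Beside 1 rise, the falls in this list were 2 without DMSO replicate 2 and 3 without TMP269 replicate 1. The retinoic acid-degrading enzyme gene Cyp26b1, too low to test, had 1 and 1 reads with DMSO and 3 and 5 with TMP269, and was named after its values were seen.

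Of 11 tested targets of liver X receptors, 2 rose and 1 fell, with a median log2 fold change of -0.04. The rises were 4 with equal library totals and also 4 without TMP269 replicate 1, and the falls were 2 in edgeR, DESeq2 and limma-voom. Pltp, a phospholipid transfer protein gene, was at 189.9 and 158 with DMSO and 434 and 414 with TMP269, 2.44-fold higher (limma adjusted p = 6.51e-04). The sterol exporter gene Abcg1 rose 1.57-fold and the desaturase gene Scd1 fell to 0.696-fold (limma adjusted p = 0.0105 and 0.00570). Of 14 tested PPAR targets, 1 rose and 3 fell (median -0.09), with 2 rises under equal library totals or without TMP269 replicate 2 and 1 fall without DMSO replicate 2. Fabp5, which carries fatty acids to PPAR delta, was at 4608 and 4418 with DMSO and 2206 and 1956 with TMP269, a fall to 0.460-fold (limma adjusted p = 1.53e-04). The mitochondrial thiolase gene Acaa2 fell to 0.728-fold (limma adjusted p = 0.0108, and 0.0595 without DMSO replicate 2).

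Of 12 tested glucocorticoid receptor targets, 3 rose and 2 fell (median -0.06), with 1 rise without DMSO replicate 2 or TMP269 replicate 2, and 1 fall without DMSO replicate 2, without TMP269 replicate 1 or with equal library totals. The inhibitor of NF-kappaB gene Nfkbia rose 1.48-fold and Tsc22d3, which encodes the glucocorticoid-induced protein GILZ, 1.36-fold (limma adjusted p = 0.00197 and 0.0169). The kinase gene Sgk1 was at 1778 and 1399 with DMSO and 818 and 735 with TMP269, a fall to 0.492-fold (limma adjusted p = 9.72e-04). Fkbp5, a receptor-bound immunophilin and feedback target, fell to 0.802-fold (limma adjusted p = 0.0158). The Tsc22d3 call was lost without DMSO replicate 2, TMP269 replicate 1 or TMP269 replicate 2 (limma adjusted p = 0.0773, 0.0627 and 0.0585). That of Fkbp5 was lost without the same libraries (0.0699, 0.0578 and 0.0792) and with equal library totals (0.0646).

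Of 9 chaperone genes whose proteins hold the glucocorticoid receptor ready for ligand, 6 fell and 0 rose, where 14.7% of all tested genes fell. The list's median log2 fold change was -0.50, and Hspa8, Dnaja1 and Dnajb1 were not called, the last at 0.0039 (limma adjusted p = 0.983). Fkbp4, the immunophilin FKBP52, was at 7069.5 and 7804 with DMSO and 4770.0 and 4664 with TMP269, a fall to 0.635-fold (limma adjusted p = 0.00118). Ppid, the cyclophilin of these complexes, fell to 0.663-fold (limma adjusted p = 0.00334). These proteins serve many clients besides the receptor. Of 3 tested vitamin D and thyroid hormone genes, 0 were called by limma, 1 (Dio2) had an unadjusted p under 0.05, and edgeR and DESeq2 called 0, while 1 rose without DMSO replicate 1. The median log2 fold change of these 3 was 0.58, with Hr at 1.21, Dio2 at 0.58 and Cyp2r1 at -0.31 (limma adjusted p = 0.164, 0.119 and 0.522). Hr was low, with 25 and 4 reads with DMSO and 23 and 30 with TMP269. The untested targets Cyp24a1 of vitamin D and Thrsp and Dio1 of thyroid hormone had at most 1 read in each library.

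Beside Ncoa4, iron handling genes split, with 2 of 7 tested higher and 2 lower, or 1 lower in the fits that lose Fth1 below. The ferritin light chain gene Ftl1 rose 1.46-fold and the heavy chain gene Fth1 fell to 0.799-fold (limma adjusted p = 0.00471 and 0.0256). The Fth1 call was lost with equal library totals (limma adjusted p = 0.0807) and without DMSO replicate 1, DMSO replicate 2 or TMP269 replicate 1 (0.0516, 0.0631 and 0.265). Ferritin genes have many pseudogenes, so how their reads were assigned is uncertain. Hmox1, the haem-degrading oxygenase, rose 1.53-fold and the iron importer gene Slc11a2 fell to 0.741-fold (limma adjusted p = 0.00672 and 0.00616). Over all tested genes, 12.8% rose and 14.7% fell.

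**Figure D4:**
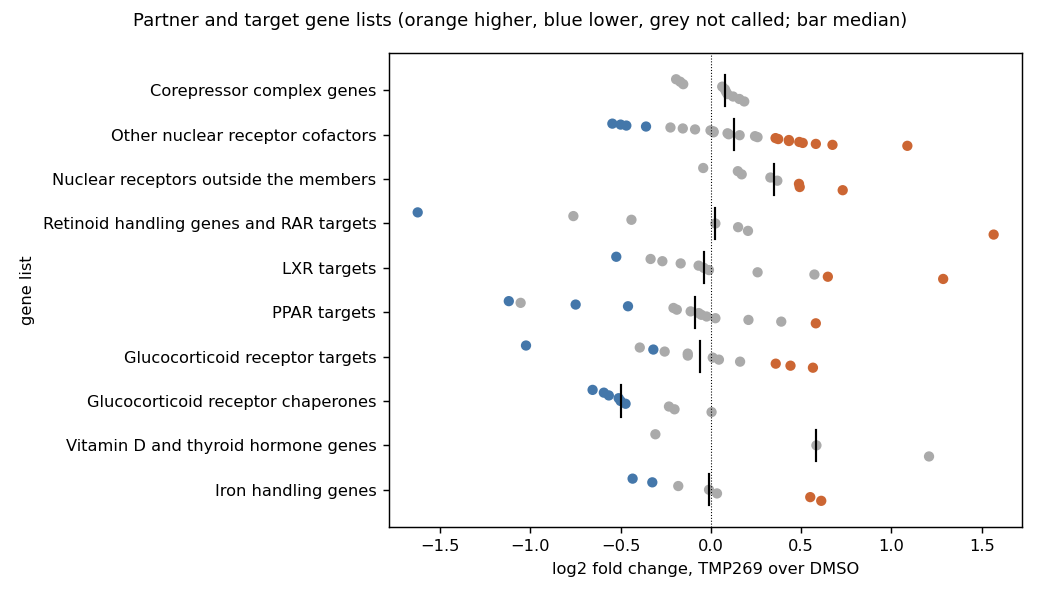
Log2 fold change of TMP269 over DMSO (horizontal axis) for each tested gene of the 10 partner and target lists; orange points were called higher, blue lower and grey not called, and bars mark list medians. The chaperone list lies lowest, with a median of -0.50, and most target lists have called genes on both sides of 0.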

How the data were processed

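Expression was measured by sequencing of polyadenylated RNA. The deposited table held a normalised signal per gene and library, and multiplying by 1 factor per library returned whole reads for 100% of values (within 1e-06). The submitters' processing notes name the build mm9 and, with no role for any of them, HTSeq, TopHat2 2.1.0, Bowtie2, CASAVA 1.4 and DESeq2. How reads were annotated, stranded or assigned when they matched several places is not given in the sources used here.

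The main test was limma 3.58.1 in R 4.3.3, two-sided, on log2(value + 1) in all 4 libraries, using eBayes with a trend and no covariate. Genes with 10 or more normalised reads in 2 or more libraries entered, with Benjamini-Hochberg adjustment over 12535 genes. Fold changes are on this log2(value + 1) scale and understate changes of low genes. Alternatives were edgeR 4.0.16 and DESeq2 1.42.0 on the recovered reads, limma-voom, other scalings, pseudocounts and filters, the replicate number as a block, and each library left out. On simulated data, with the same spread setting for all genes, the test was checked. The check had a pass mark only for changes larger than any called among the 33 genes. Genes were named by rule: all 33 of the group, and from each list up to 2 called genes per direction by smallest p, some of which are not reported here. The members and lists were chosen with earlier results of these data known. Spans and promoter windows come from RefSeq tables of GRCm38.p6, used for names, neighbours and sequences only.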

Additional observations from a re-analysis of the deposited data

How the results depend on the processing

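Of the 6 called genes, 5 (Rarg, Rxra, Thrb, Thra and Ncoa2) were called with the same sign in all 15 alternatives that give a value per gene, and Ncoa7 in 11 of 15. Of the 21 others, 8 were called in at least 1 alternative. Called counts below are of the 27 genes. Rises numbered 8 with edgeR, limma-voom, TMM scaling or an adjusted p under 0.10, and 9 with equal library totals, with or without Rn45s. They numbered 4 to 5 with 1 library left out. At an adjusted p under 0.01 there were 0 falls in limma, edgeR or DESeq2, while 1 (Thra) had an unadjusted p under 0.05 in each. Over all genes, 1040 to 1789 rose and 966 to 1823 fell with 1 library left out, the lowest without DMSO replicate 2. At 0.01, 717 rose and 770 fell, and equal totals gave 1042 falls, or 1151 without Rn45s.

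Replicate numbers are not stated to pair the libraries. Deviations of same-numbered libraries correlated at 0.37 across genes, which are not independent, over 2 pairs only. With the replicate number as a block, 3008 genes rose and 3352 fell over all genes, 11 rose and 3 fell among the 27, and 36 rose and 33 fell in the lists. It called Vdr lower (limma adjusted p = 0.0466).

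The sign changed only in genes that were not called, and none was called with the other sign. Log2 fold changes became, with libraries scaled to equal totals and then again leaving Rn45s out, 0.015 and 0.0059 for Nr2f6, 0.037 and 0.028 for Ncoa5, and 0.10 and 0.091 for Ncoa4. Ncoa4 also gave 0.016 in edgeR, 0.010 in DESeq2, 0.012 in limma-voom and 0.0093 with TMM scaling. With 1 library left out, values ranged from -0.20 to 0.017 for Nr2f6, -0.14 to 0.13 for Ncoa4, -0.030 to 0.042 for Esrra, -0.0096 to 0.13 for Med1, -0.044 to 0.21 for Nrip1 and -0.074 to 0.15 for Ppargc1b. The cause of these changes was not tested. Depth limits the 6 untested genes.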
